A study of Mus musculus with 128 samples.

Results

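The proteasome subunit genes were taken as the protein-coding genes of the deposited mouse liver count table whose symbol begins with Psma to Psmg followed by a number, which gave 50 of 35275 genes. By role they were 8 genes for alpha subunits of the 20S core, 8 for its constitutive beta subunits, 3 for immunoproteasome beta subunits (Psmb8, Psmb9 and Psmb10), 6 for ATPases and 11 for other subunits of the 19S regulatory particle, 6 for activators and an inhibitor, 7 for assembly chaperones, and Psmc3ip. Psmc3ip, which encodes a meiotic recombination factor and not a proteasome subunit, matched by its name alone and was kept so that every match is accounted for. Counts over all matches below include it among the 49 genes that passed the filter on low counts. Psmb11, which encodes the thymus-restricted beta subunit, was the gene that did not pass, with reads in 6 libraries, a median of 0 FPKM and a maximum of 0.036 FPKM.

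The proteasome is the protease that degrades proteins tagged with ubiquitin. Its barrel-shaped 20S core has outer rings of alpha subunits and inner rings of beta subunits, of which Psmb5, Psmb6 and Psmb7 encode those that cut peptide bonds, and the 19S particle at its ends binds, unfolds and deubiquitinates the substrates. In cells that have met interferon gamma, the immunoproteasome subunits of Psmb8, Psmb9 and Psmb10 replace those of Psmb5, Psmb6 and Psmb7 and change which peptides are made for antigen presentation. In liver, fasting and refeeding shift the balance of protein synthesis and breakdown, and hepatocytes carry most of the tissue's RNA.

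The study sequenced RNA from livers of male wild-type mice, 8 weeks old, of the inbred strains BALB/c and C57BL6/J. Mice had been trained for 1 week and fasted for 21 h, and then received chow, with 10% of its calories from fat and 64.5% from carbohydrate, together with a drink that held 20% glucose, sucrose or fructose, or was water. Livers were taken at 3, 6 or 12 h after food and drink returned, and at 0 h, before refeeding, from the water arm of each strain, which made 26 groups. Of these, 24 groups had 5 libraries and 2 had 4, the BALB/c glucose and fructose groups at 12 h. All groups shared the fast and the training, and drinking water was withheld before the meal. Times after 0 h also differed from it in time of day, and the effects of feeding and of the hour cannot be told apart. The labels do not say outright that each replicate was a separate mouse, so the p-values cover the spread from library to library. In whole tissue, fewer cells of a type and less RNA per cell cannot be told apart.

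The libraries held 18541545 to 43118895 counts, and the 50 genes took 0.33 to 0.566% of them. In CPM, the counts scaled to a common library size with TMM factors, the summed level of hepatocyte markers was 43200 to 131000 CPM and that of T and NK cell markers 0.546 to 15.7 CPM, so the tissue label was matched. Some libraries stood apart from the rest of their groups. Pck1, a gluconeogenic gene of the fasted liver, was at 160 CPM in C57BL6/J replicate 2 at 0 h, while its 4 companions had 3490 to 5150 CPM, and adrenal transcripts reached over 50 CPM in 4 libraries, all at 6 h. Skeletal muscle markers summed to between 0.227 and 579 CPM. Fits were repeated without the 0 h library with low Pck1, without the 4 libraries with adrenal transcripts, without 34 libraries whose names carry a suffix, and with the summed level of skeletal muscle markers as a covariate.

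The promoters of 5 of the genes are printed here because the results below turn on them: Psmd14 and Psmc5 changed with refeeding, Psmb5 and Psmb9 differed between the strains, and Psmb8 is the immunoproteasome gene that did not pass the test in any of these comparisons. Each is 300 bases from RefSeq on GRCm38.p6, 250 before and 50 after the annotated start of the gene, written 5′ to 3′ on the strand of the gene. They lie at chr2:61711444-61711743 (plus strand) for Psmd14, chr11:106255935-106256234 (plus) for Psmc5, chr14:54617946-54618245 (minus) for Psmb5, chr17:34187281-34187580 (minus) for Psmb9 and chr17:34197945-34198244 (plus) for Psmb8. The start used is that of RefSeq. In the deposited gene models Psmb8 starts at 34197721 and Psmb9 at 34187764, so the windows of both lie within the counted genes and not before them. Capitals mark the letters that match a motif, on either strand.
Psmd14: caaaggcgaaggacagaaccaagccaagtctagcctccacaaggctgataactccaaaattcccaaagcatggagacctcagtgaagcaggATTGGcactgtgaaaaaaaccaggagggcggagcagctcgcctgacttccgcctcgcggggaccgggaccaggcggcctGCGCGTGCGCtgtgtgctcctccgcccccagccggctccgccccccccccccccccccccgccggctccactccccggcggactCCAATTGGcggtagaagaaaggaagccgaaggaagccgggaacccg
Psmc5: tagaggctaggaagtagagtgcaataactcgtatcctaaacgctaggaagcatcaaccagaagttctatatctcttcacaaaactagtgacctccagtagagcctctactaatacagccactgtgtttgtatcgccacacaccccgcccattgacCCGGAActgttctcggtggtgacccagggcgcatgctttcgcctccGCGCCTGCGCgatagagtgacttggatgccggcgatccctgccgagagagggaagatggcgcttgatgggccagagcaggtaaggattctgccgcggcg
Psmb5: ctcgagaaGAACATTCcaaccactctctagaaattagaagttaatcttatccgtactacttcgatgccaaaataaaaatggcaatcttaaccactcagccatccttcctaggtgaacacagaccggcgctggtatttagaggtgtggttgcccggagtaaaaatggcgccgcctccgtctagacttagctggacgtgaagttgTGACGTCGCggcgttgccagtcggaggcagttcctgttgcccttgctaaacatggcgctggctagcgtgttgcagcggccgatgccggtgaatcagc
Psmb9: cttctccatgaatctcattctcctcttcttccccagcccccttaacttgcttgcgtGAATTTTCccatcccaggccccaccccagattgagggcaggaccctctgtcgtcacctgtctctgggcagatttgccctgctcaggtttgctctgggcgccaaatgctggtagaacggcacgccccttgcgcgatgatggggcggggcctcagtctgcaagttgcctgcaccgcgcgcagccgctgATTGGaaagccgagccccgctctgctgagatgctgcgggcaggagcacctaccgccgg
Psmb8: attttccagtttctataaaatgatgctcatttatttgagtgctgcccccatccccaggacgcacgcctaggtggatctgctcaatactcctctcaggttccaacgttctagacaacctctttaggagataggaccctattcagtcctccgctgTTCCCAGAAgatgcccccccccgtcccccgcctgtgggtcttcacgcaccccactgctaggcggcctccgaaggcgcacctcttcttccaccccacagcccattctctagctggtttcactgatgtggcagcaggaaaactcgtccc

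Promoters were given for 42 of the 50 genes, and 9 motifs were searched in them on both strands. The ETS factor site CCGGAA was in 21 of the 42 promoters, against 14.9% of all 32851 promoters of the same length, and in the Psmc5 promoter above it stands 95 bases before the start. The nuclear respiratory factor site, GCGC and TGCGC around any base, was in 7 members and in 4.6% of all promoters, and it is present in Psmd14 and Psmc5. The CCAAT box (CCAAT) was in 15 members and in 37.4% of all promoters, with 3 matches in Psmd14, of which the last overlap on opposite strands around the start. The antioxidant response element TGACNNNGC, which the factor Nfe2l1 binds when proteasome genes are induced after proteasome inhibition, was in 6 members and in 12.4% of all promoters, and 1 of those members is Psmb5. The interferon-linked motifs were found in 5 members for GAAA repeated after any 2 bases (3.44% of all promoters) and in 3 for TTCNNNGAA (8.3%), the last of these marked in Psmb8. The 5 members were Psmb3, Psmd4, Psmd9, Psme1 and Psmg4, with no immunoproteasome gene among them. The windows of Psmb8 and Psmb9 lie within the counted genes, so the sequence before the starts of those gene models was not searched. The heat shock element GAANNTTC was in 3 members (7.86%), among them Psmb5 and Psmb9, and its TTC and GAA ends are also those of TTCNNNGAA, so that matches of both can share letters. The ZNF143 site, ACTACAA and TCCC around any base, was in 2 members (0.95%) and the E-box CACGTG in 4 (7.15%). These matches describe letters in the windows, and no binding was measured.

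Levels per length, in FPKM, overlapped between the classes. Summed over a class, the mean over all libraries was 1020 FPKM for the constitutive beta genes, 653 FPKM for the alpha genes, 411 FPKM for the ATPase genes and 535 FPKM for the other 19S genes. Psmb6 had the highest median over all libraries, 218 FPKM, followed by Psmb4 at 182, Psmb1 at 166, Psmb7 at 135 and Psmb5 at 130 FPKM. The immunoproteasome genes were lower than every constitutive beta gene but Psmb11, with Psmb10 at 34.5, Psmb8 at 9.02 and Psmb9 at 4.5 FPKM. The testis-restricted alpha subunit gene Psma8 had a median of 0.537 FPKM and Psmc3ip 0.501 FPKM. Set against the constitutive subunit that each replaces, the median FPKM ratio of Psmb8 to Psmb5 was 0.0878 in BALB/c and 0.0513 in C57BL6/J, that of Psmb9 to Psmb6 was 0.0186 in BALB/c and 0.0265 in C57BL6/J, and that of Psmb10 to Psmb7 was 0.216 in BALB/c and 0.287 in C57BL6/J. These ratios are levels of RNA and overlap between the strains in their ranges.

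**Figure D1:**
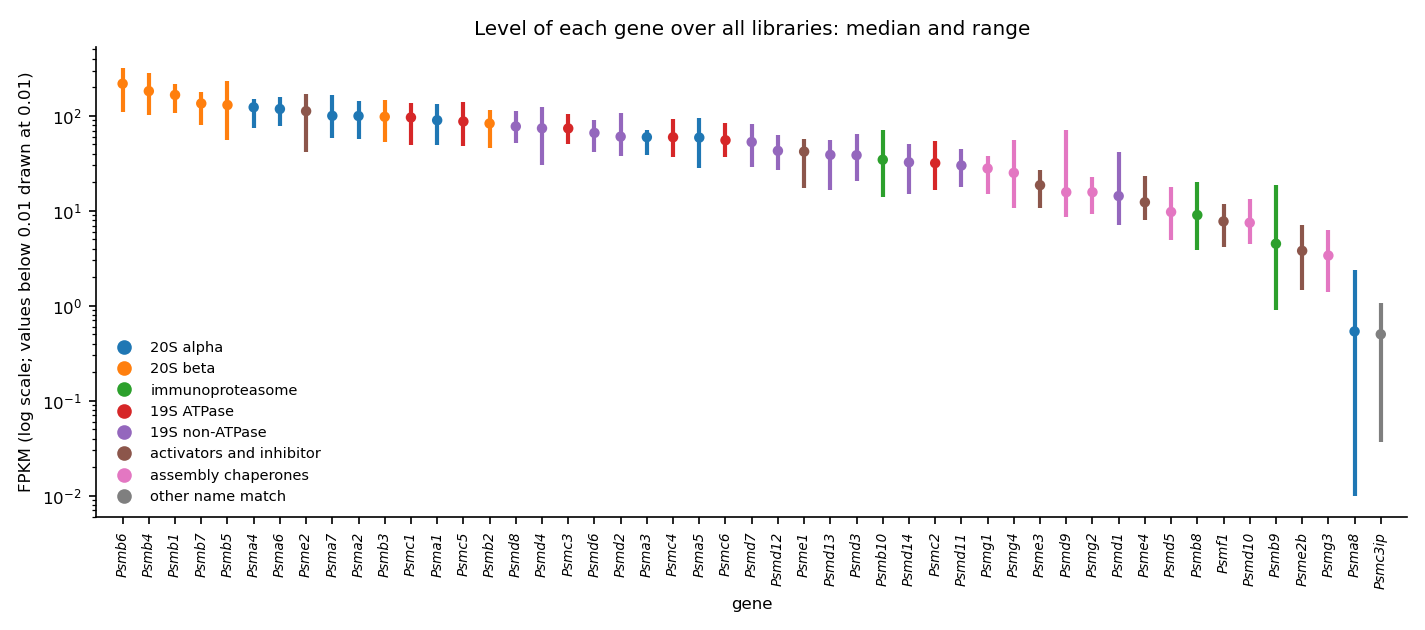
Level of each gene in FPKM on a log scale, with the median as a point and the range over all libraries as a line, coloured by class. Psmb6 stands highest with a median of 218 FPKM, and the immunoproteasome genes lie below the constitutive beta subunit genes; Psmb11, with a median of 0, is not drawn.

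After refeeding with chow and water, many genes of the 19S particle and of the 20S core were higher at 6 h, and few at 3 or 12 h. At 6 h, 24 of the 49 tested genes were higher than at 0 h and 1 was lower, against 28.8% of all 16886 tested genes called in either direction, 13.9% higher and 14.9% lower. At 3 h, 8 were higher and 1 lower, where 25.4% of all genes were called (12.7% higher and 12.7% lower), and at 12 h, 5 were higher and 2 lower, where 17.6% were called (8.31% higher and 9.3% lower). The share at 3 h thus lay near the background, and at 12 h as well, where it fell to 3 calls in a fit of the contrast's libraries alone and to 4 without replicate 3 or 5. The 3 times were compared with the same 0 h libraries. Calls here and below are adjusted p-values under 0.05 in edgeR's quasi-likelihood test with Benjamini-Hochberg adjustment over all genes, with both strains and n = 10 in each group of a water contrast. The median log2 fold change over the 49 genes was 0.07 at 3 h, 0.25 at 6 h and 0.08 at 12 h, beside medians of -0.01, -0.0015 and -0.0068 over all tested genes. The calls of Psma4, Psma6, Psmb3, Psmb9, Psmc3, Psmd3, Psmd4 and Psmg1 at 6 h were lost without replicate 5, and the other 17 were kept in every alternative tried. At 3 h the calls of Psmc4, Psmc5 and Psmd7 were lost in several alternatives. At 12 h Psmd14, Psma1, Psmd11, Psmc2 and Psma3 were called higher and Psmd9 and Psme3 lower, and only the first 3 of these calls were kept in every alternative tried. Adrenal markers were called higher at 6 h, 5 of 5, where 1 of the 10 libraries held over 50 CPM of them. Their summed level was 2.66 to 600 CPM at 6 h in C57BL6/J (median 3.03), against 3.16 to 5.8 CPM at 0 h (median 3.43), and 3.04 to 21.5 CPM at 6 h in BALB/c (median 3.11), against 2.95 to 10.4 CPM at 0 h (median 5.57). Without the 4 libraries with adrenal transcripts 8, 25 and 7 proteasome genes were called at 3, 6 and 12 h, without the 0 h library with low Pck1 10, 25 and 6, and with the muscle markers as a covariate 8, 26 and 5.

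By class, 5 of 6 ATPase genes rose at 6 h (median log2 fold change 0.47), 8 of 11 other 19S genes (0.33), 6 of 8 alpha genes (0.32) and 2 of 7 constitutive beta genes (0.19). None of the 6 activator and inhibitor genes passed the test (median 0.14), with 1 at an unadjusted p under 0.05, which 38.0% of all genes reached. Of the assembly chaperone genes, 2 rose and 1 fell among 7. The immunoproteasome genes did not move together: Psmb9 rose, while Psmb8 and Psmb10 had log2 fold changes of -0.08 and -0.31 that did not pass. Of the 8 genes called higher at 3 h, 5 belonged to the 19S particle and 1 to the 20S core. Summed over each class, the ATPase genes reached 517 ± 27.7 FPKM at 6 h in BALB/c, against 344 ± 32.5 FPKM at 0 h, and 401 ± 23.4 FPKM at 6 h in C57BL6/J, against 335 ± 27.7 FPKM at 0 h (SD, n = 5 each).

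**Figure D2:**
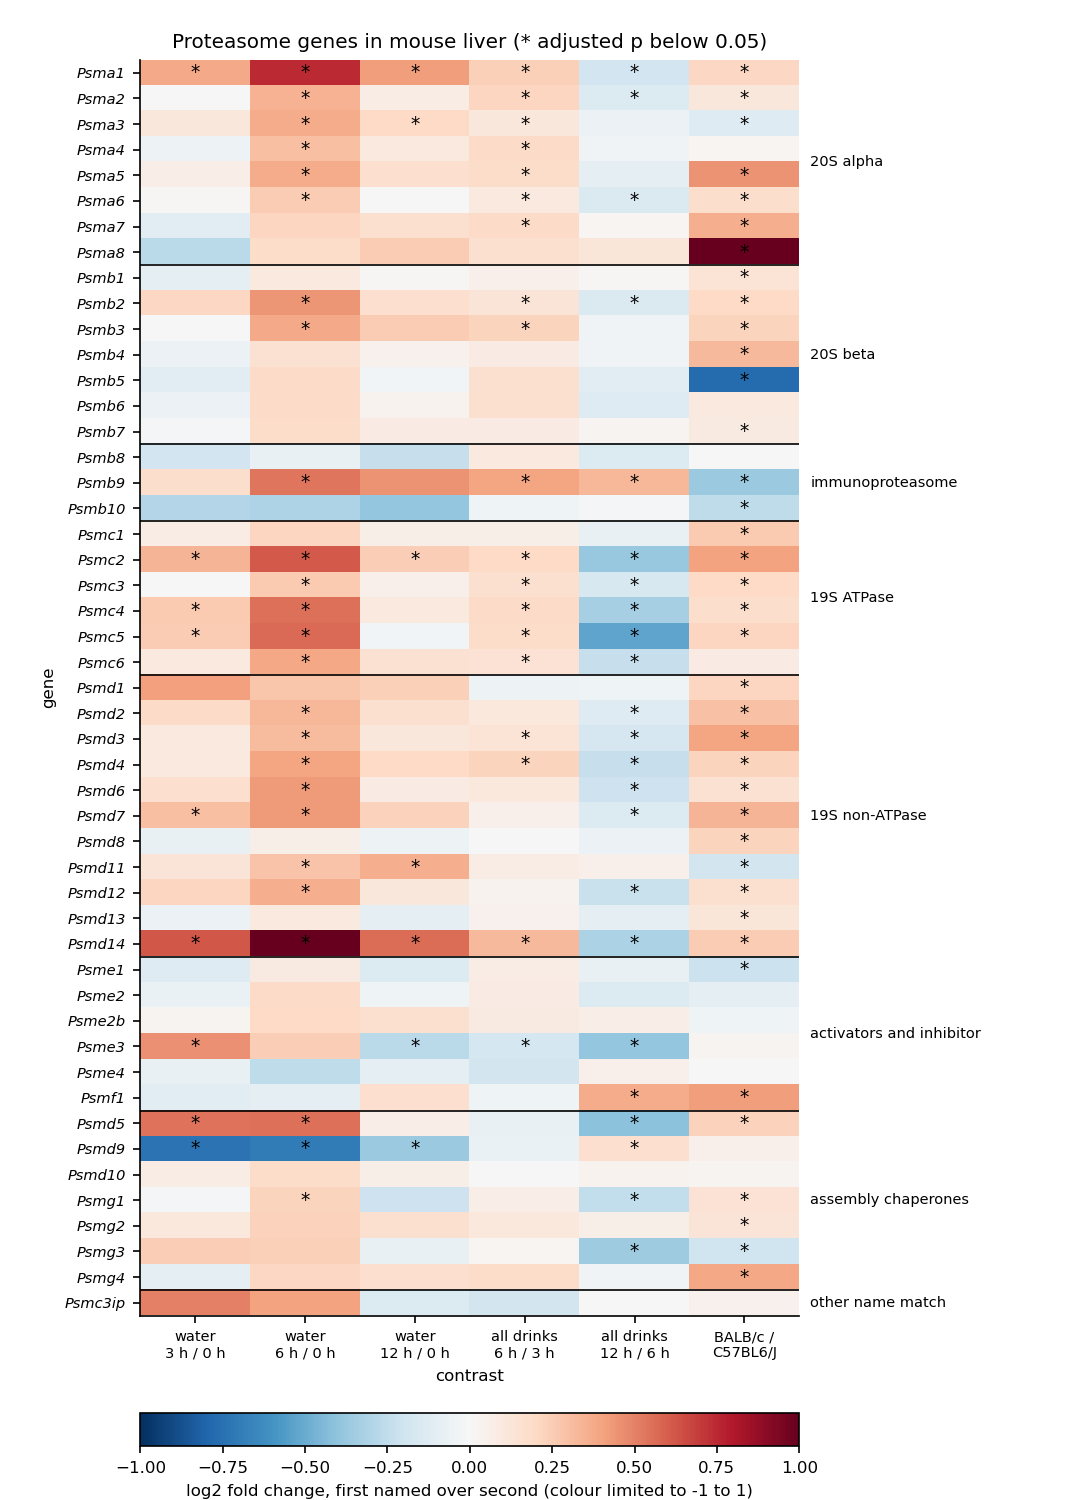
Log2 fold change of each tested gene (rows, by class) in the contrasts of time and strain (columns, first named group over the second). The columns are water at 3, 6 and 12 h against 0 h, the steps from 3 to 6 h and 6 to 12 h over all drinks, and the strains. Red is for higher and blue for lower, with an asterisk for an adjusted p under 0.05. The column of water at 6 h against 0 h carries 24 higher genes and 1 lower, and the sugar contrasts are not drawn.

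Psmd14, which encodes the metalloprotease of the 19S lid that removes ubiquitin chains from the substrate, changed most. At 6 h its level in BALB/c was 58.6, 74.5, 62.9, 77.2 and 71.3 CPM, against 25.5, 25.9, 28.3, 33.2 and 31.8 CPM at 0 h. In C57BL6/J at 6 h it was 48.4, 59.2, 54.3, 63.9 and 70.0 CPM, against 25.6, 50.7, 25.7, 27.3 and 29.0 CPM at 0 h. All 5 BALB/c libraries at 6 h lay above all 5 at 0 h, and in C57BL6/J the groups overlapped through the single library at 0 h with low Pck1. The log2 fold change was 1.08 (SE 0.105, adjusted p = 3.033e-15, edgeR quasi-likelihood test), and without that library 1.19. At 3 h Psmd14 had already risen by 0.62 on the log2 scale (adjusted p = 8.956e-07), and at 12 h it was still 0.56 above 0 h.

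Psma1, an alpha subunit gene, in BALB/c reached 126, 138, 136, 141 and 151 CPM at 6 h, against 58.4, 71.4, 74.7, 70.3 and 69.1 CPM at 0 h. In C57BL6/J it had 105, 120, 92.0, 120 and 124 CPM at 6 h, against 80.0, 95.2, 72.5, 67.3 and 85.7 CPM at 0 h. The BALB/c groups were apart, and in C57BL6/J 1 library at 6 h lay below the highest library at 0 h. The log2 fold change over both strains was 0.75 (SE 0.094, adjusted p = 1.588e-10, edgeR), with 0.38 at 3 h and 0.41 at 12 h, both called. Of the other alpha genes, Psma5 (0.37), Psma3 (0.37), Psma2 (0.35), Psma4 (0.30) and Psma6 (0.25) rose at 6 h. Psma7 (0.22, adjusted p = 0.108) and Psma8 (0.19) did not pass.

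Among the ATPases, which unfold the substrate and thread it into the core, Psmc2 rose by 0.61 at 6 h (adjusted p = 1.453e-09, edgeR) and Psmc5 by 0.57 (adjusted p = 2.109e-06), Psmc4 by 0.55, Psmc6 by 0.39 and Psmc3 by 0.26. For Psmc5, BALB/c libraries held 141, 152, 173, 185 and 162 CPM at 6 h, against 92.8, 91.6, 98.9, 143 and 90.9 CPM at 0 h. C57BL6/J libraries held 129, 129, 155, 131 and 154 CPM at 6 h, against 74.5, 110, 98.3, 114 and 102 CPM at 0 h. The C57BL6/J groups did not overlap, and in BALB/c 1 library at 0 h reached into the range at 6 h. At 12 h Psmc5 was back near its 0 h level in water, with a log2 fold change of -0.03 that did not pass, while Psmc2 was 0.25 higher, a call lost without the libraries with a name suffix, without replicate 1 or 5, with the muscle markers as a covariate and with the libraries of the contrast alone. Psmc3 shares 4579 bases with Slc39a13 on the opposite strand, so its counts are uncertain.

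Of the other 19S genes, Psmd6 (0.43), Psmd7, which encodes the partner of the Psmd14 protein in the lid (0.42), Psmd4, an ubiquitin receptor (0.40), Psmd12 (0.36), Psmd2, a scaffold of the base (0.33), Psmd3 (0.32) and Psmd11 (0.29) also rose at 6 h. Of the constitutive beta genes, Psmb2 (0.44, adjusted p = 5.106e-05, edgeR) and Psmb3 (0.38) rose. Psmb1 (0.09) and Psmb4 (0.15), structural beta genes, did not pass, nor did Psmc1, Psmd1, Psmd8 and Psmd13, with log2 fold changes of 0.22, 0.27, 0.06 and 0.09; Psmd13 overlaps Sirt3 on the opposite strand, which fell by 0.78. The genes of the 3 catalytic subunits did not pass at any time: Psmb5 had log2 fold changes of -0.11, 0.20 and -0.03 at 3, 6 and 12 h, Psmb6 -0.06, 0.19 and 0.04, and Psmb7 -0.02, 0.18 and 0.08. Nek6 on the opposite strand, which itself rose at 6 h by 1.28, shares 6 bases with Psmb7 in the deposited gene models and 6571 bases in GENCODE M21, and whether reads were counted by strand is not known here.

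The assembly chaperone genes split. Psmd5, whose product holds ATPases of the base before it is built, rose by 0.55 at 6 h (SE 0.144, adjusted p = 0.001685, edgeR) and by 0.54 at 3 h. Its BALB/c libraries had 38.8, 46.6, 46.1, 39.9 and 44.0 CPM at 6 h, against 18.0, 20.0, 26.9, 21.3 and 33.3 CPM at 0 h, and its C57BL6/J libraries 27.9, 41.4, 20.6, 36.2 and 37.5 CPM at 6 h, against 32.0, 37.0, 22.0, 22.2 and 24.3 CPM at 0 h. The BALB/c groups were apart and the C57BL6/J groups overlapped. Psmd5 shares its locus with Cutal on the opposite strand, which rose by 0.74 at 6 h, so its counts are uncertain. Psmg1, a chaperone of core assembly, rose by 0.23, a call lost in several of the alternatives tried. The chaperone genes Psmg2, Psmg3, Psmg4 and Psmd10 had values of 0.23, 0.24, 0.20 and 0.19 that did not pass.

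Psmd9, another chaperone of the base, fell. BALB/c libraries had 34.3, 36.6, 40.8, 48.4 and 46.8 CPM at 6 h, against 185, 53.7, 66.7, 75.8 and 58.7 CPM at 0 h, and C57BL6/J libraries 38.8, 40.3, 38.6, 47.6 and 44.4 CPM at 6 h, against 53.8, 39.7, 59.2, 54.5 and 53.8 CPM at 0 h. The BALB/c groups did not overlap, and in C57BL6/J they overlapped through the 0 h library with low Pck1. The log2 fold change was -0.70 at 6 h (SE 0.128, adjusted p = 4.995e-06, edgeR) and -0.74 at 3 h, and without that library -0.74 at 6 h and -0.78 at 3 h. The library at 185 CPM weighs on this value: without replicate 1 the log2 fold change was -0.42 at 6 h and -0.52 at 3 h, and both calls remained. At 12 h it was -0.37, a call lost without replicate 1, 3 or 4 and with the libraries of the contrast alone. GENCODE M21 has a longer Psmd9 that spans Hpd, an abundant liver gene on the opposite strand, but the deposited gene model of Psmd9 shares 0 bases with it.

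Psme3, which encodes the nuclear activator of the 20S core, was called higher at 3 h and not at 6 h. In BALB/c its libraries had 64.1, 68.2, 64.5, 52.6 and 65.1 CPM at 3 h, against 52.0, 35.6, 42.5, 40.2 and 46.3 CPM at 0 h. In C57BL6/J they had 71.8, 59.1, 65.7, 40.2 and 70.7 CPM at 3 h, against 55.5, 59.2, 40.3, 40.2 and 41.9 CPM at 0 h. The BALB/c groups did not overlap and the C57BL6/J groups did. Its log2 fold change was 0.46 at 3 h (adjusted p = 0.000148, edgeR), 0.24 at 6 h, which did not pass, and -0.27 at 12 h (adjusted p = 0.04236), a call that was lost in several of the alternatives tried. Of the other activator genes, the interferon-induced pair Psme1 and Psme2 had 0.09 and 0.19 at 6 h, Psme2b, a near copy of Psme2 that may share its reads, 0.20, and Psme4 -0.26, none of which passed.

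**Figure D3:**
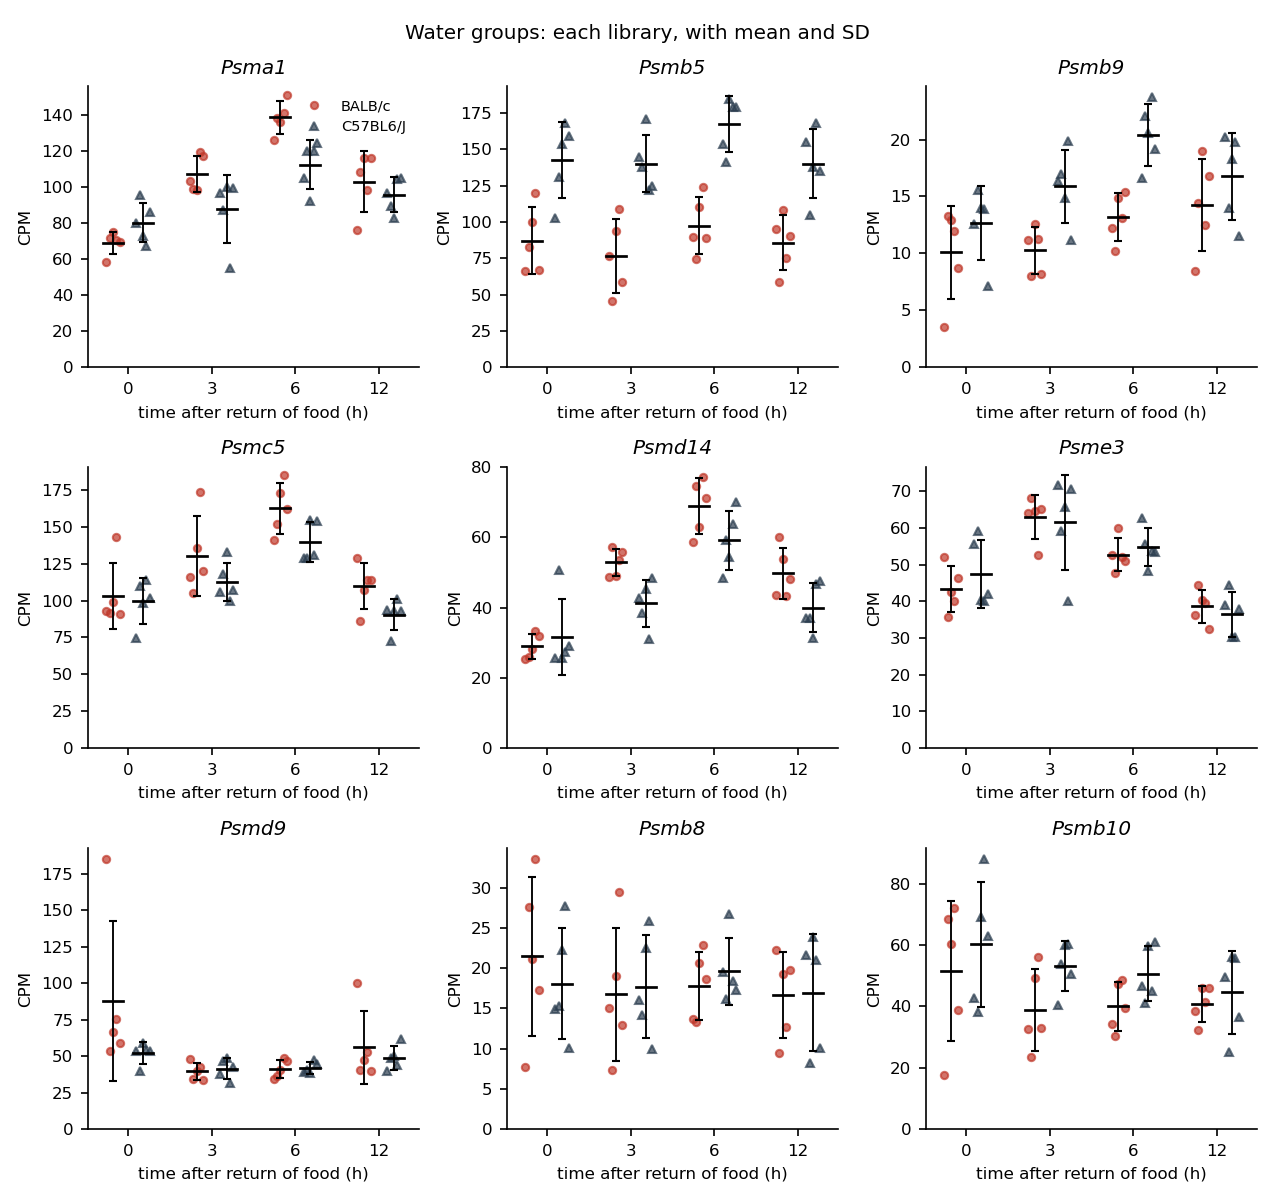
Level in CPM of single genes in every library of the water groups against time after food returned, with BALB/c left of C57BL6/J at each time and bars for mean and SD (n = 5 each). Psmd14 and Psma1 stand highest at 6 h in both strains, and Psmd9 lies below its 0 h libraries at 3 and 6 h except for 1 C57BL6/J library at 0 h.

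Psmb9 was the immunoproteasome gene that passed, with a log2 fold change of 0.54 at 6 h (SE 0.191, adjusted p = 0.02415, edgeR) and 16.8 ± 4.46 CPM at 6 h, against 11.4 ± 3.73 CPM at 0 h (SD, n = 10 each). In BALB/c it had 12.2, 10.2, 14.9, 13.1 and 15.4 CPM at 6 h, against 3.56, 13.3, 12.9, 12.0 and 8.73 CPM at 0 h, and in C57BL6/J 16.6, 22.1, 20.6, 23.7 and 19.2 CPM at 6 h, against 12.6, 15.6, 14.0, 13.9 and 7.11 CPM at 0 h. The C57BL6/J groups did not overlap, the BALB/c groups did, and the call was lost without replicate 1, 3 or 5. Psmb9 overlaps the head-to-head antigen transporter gene Tap1, which had a log2 fold change of 0.12 at 6 h that did not pass and rose at 3 and 12 h by 0.43 and 0.57, so the Psmb9 counts are uncertain. Beside these values, 3 of 5 B and plasma cell markers fell at 6 h and 0 of 6 T and NK cell markers passed. The B and plasma cell markers summed to 2.59 to 5.95 CPM at 6 h in BALB/c (median 4.93), against 2.82 to 14.1 CPM at 0 h (median 3.99). In C57BL6/J they summed to 1.87 to 3.41 CPM at 6 h (median 2.4), against 1.58 to 11.8 CPM at 0 h (median 3.37). The part of these markers was not tested. Psmb8 and Psmb10 did not pass at 3, 6 or 12 h, with log2 fold changes of -0.19, -0.08 and -0.23 for Psmb8 and -0.29, -0.31 and -0.38 for Psmb10.

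The ratios of the immunoproteasome genes to their constitutive counterparts, computed on counts within each library, were tested in each strain and time against 0 h by 18 exact permutation tests, 2-sided, of 5 libraries against 5, where the smallest possible p is 0.00794. None passed after adjustment over the 18, with the lowest p at 0.127 for Psmb9 to Psmb6 in C57BL6/J at 6 h (difference in log2 ratio 0.51, adjusted p = 0.536). A single test at the smallest possible p would have had an adjusted p of 0.143, and 3 such tests one of 0.0476. Differences for Psmb10 to Psmb7 lay between -0.46 and -0.01.

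The response was compared between the strains by an interaction test. No proteasome gene passed at 3, 6 or 12 h, where 0.338%, 0.302% and 0.278% of all genes were called by edgeR, and DESeq2 called none either. At an unadjusted p under 0.05 there were 10, 5 and 2 of 49 genes, against 10.1%, 8.17% and 8.08% of all genes. Of the differences at 3, 6 and 12 h, 36, 33 and 38 of 49 were positive, against 47.3%, 50.4% and 51.6% of all genes. The values with the smallest p were Psmd9 at 3 h (difference -0.82, adjusted p = 0.155), Psma5 at 3 h (0.57, adjusted p = 0.287) and Psma1 at 6 h (0.52, adjusted p = 0.302), each given as the log2 fold change in BALB/c minus that in C57BL6/J. For Psmd14 at 6 h the difference was 0.35, with a 95% interval of -0.06 to 0.76. All of the 24 genes called higher at 6 h had a higher mean at 6 h in each strain. They were chosen by the mean effect of both strains in these same libraries, so this is no separate support for a shared response.

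Over all drinks, alpha and ATPase genes made up most of the genes that were higher at 6 h than at 3 h. Between 3 and 6 h, 18 of 49 genes rose and 1 fell, against 29.2% of all genes called (14.7% higher and 14.5% lower), with n = 40 at each time, and 11 were called without the libraries with a name suffix. Of these 19 calls, 8 were kept in every alternative tried. The risers were 7 of 8 alpha genes, 5 of 6 ATPase genes, 3 of 11 other 19S genes, 2 of 7 beta genes and Psmb9. Psmb9 was 0.39 higher at 6 h than at 3 h, Psmd14 0.32 and Psma1 0.24, and Psme3, which fell, was 0.17 lower, a call lost without replicate 5 and without the libraries with a name suffix. The median log2 fold change was 0.02 for the activator and inhibitor genes and 0.02 for the chaperone genes, beside 0.02 over all genes. This comparison and the one between 6 and 12 h share the 6 h libraries.

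Between 6 and 12 h, 20 genes fell and 3 rose, against 51.6% of all genes called (25.4% higher and 26.2% lower), so the share called was near the background and its direction was not. Of these 23 calls, 14 were kept in every alternative tried. Of the ATPase genes 5 of 6 fell and of the other 19S genes 7 of 11, while of the alpha genes 3 of 8 and of the beta genes 1 of 7 fell. Psmc5 had a lowest, median and highest value of 72.4, 97.9 and 129 CPM at 12 h, against 98.8, 148 and 194 CPM at 6 h, and all 38 libraries at 12 h lay below the mean of their own group at 6 h (log2 fold change -0.53, adjusted p = 1.777e-16, edgeR). Psmd5 (-0.41), Psme3 (-0.39), Psmc2 (-0.38), Psmg3, a chaperone of core assembly that shares 2816 bases with Gm26938 on its own strand (-0.35), Psmc4 (-0.34) and Psmd14 (-0.32) fell as well.

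The 3 genes that rose between 6 and 12 h were Psmf1, Psmb9 and Psmd9. Psmf1, which encodes a proteasome-binding protein first described as an inhibitor, had 22.8, 32.9 and 44.7 CPM as lowest, median and highest value at 12 h, against 16.0, 25.1 and 42.0 CPM at 6 h. The ranges overlapped, but 36 of 38 libraries at 12 h lay above the mean of their own group at 6 h (log2 fold change 0.37, adjusted p = 9.268e-15, edgeR). Psmb9 was 0.33 higher (adjusted p = 0.002141), and with the muscle markers as a covariate 0.17 higher (adjusted p = 0.302), which did not pass. Psmd9 was 0.17 higher, a call lost with that covariate and without replicate 3 or 5. B and plasma cell markers summed to 2.47 to 21.5 CPM at 12 h (median 6.54), against 1.68 to 9.63 CPM at 6 h (median 3.2), with 4 of 5 higher, and 2 of 5 Kupffer cell, 1 of 6 T and NK cell and 3 of 6 endothelial markers were also higher. Their part in the Psmb9 values was not tested. Over the same step, skeletal muscle markers summed to a median of 1.98 CPM at 12 h, against 233 CPM at 6 h, with 9 of 9 of them lower, and adrenal markers to 3.0 CPM at 12 h, against 5.17 CPM at 6 h. Without the 4 libraries with adrenal transcripts 24 proteasome genes were called, and with the muscle markers as a covariate 22, of which 21 were lower and 1 higher.

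**Figure D4:**
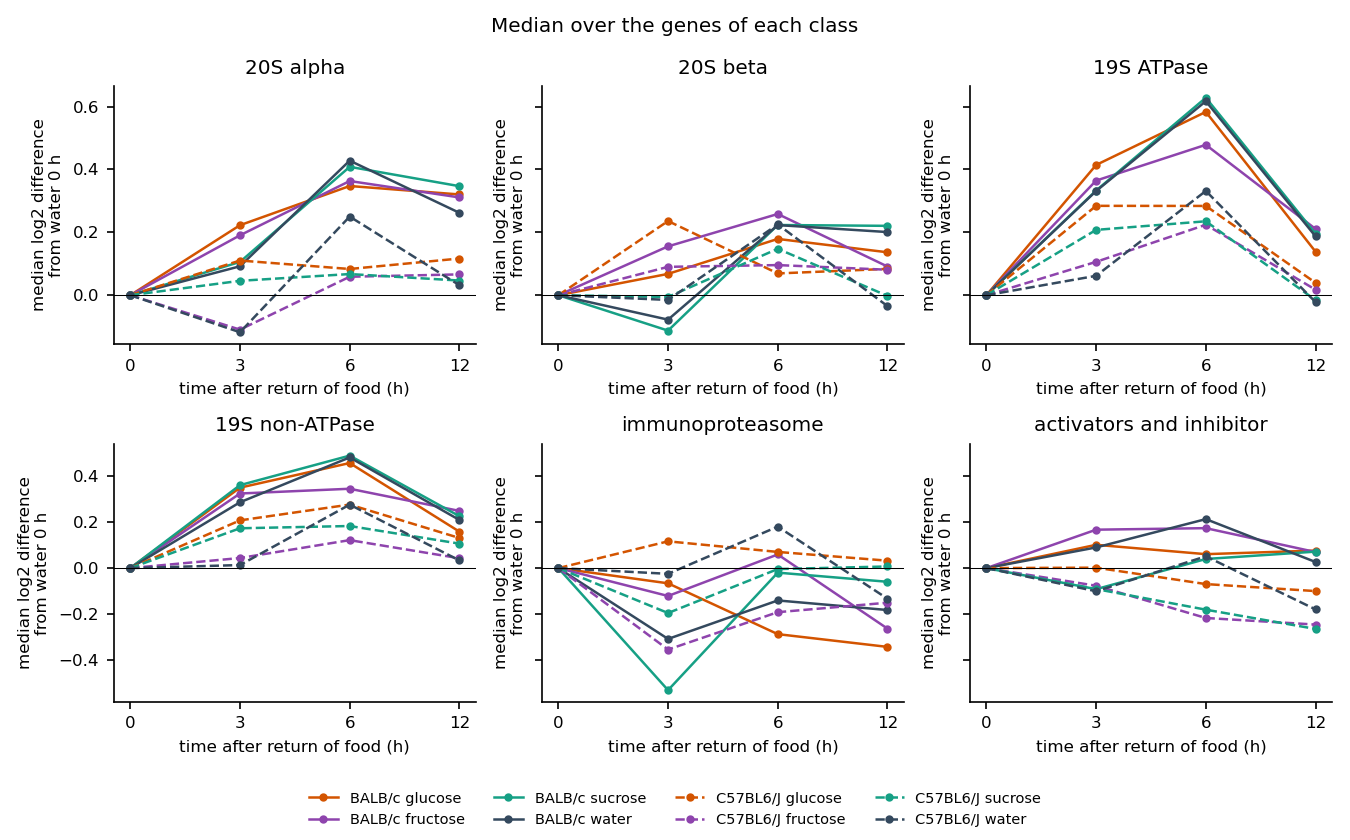
Median log2 difference from the water group at 0 h of the same strain over the genes of each class, against time after food returned, with 1 line per strain and drink. In BALB/c all 4 drinks stand highest at 6 h for the alpha, beta, ATPase and other 19S genes; in C57BL6/J this holds for 2, 3, 3 and 4 of the 4 drinks, and the alpha genes at 6 h lie at 0.06 to 0.08 with the sugars and at 0.25 in water.

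Between the sugar drinks and water few of these genes passed the test, and the share of all genes called was highest in fructose at 3 h. At 3, 6 and 12 h, 0, 0 and 0 genes passed for glucose and for sucrose, and 1, 0 and 0 for fructose, where edgeR called 0.19%, 0.906% and 0.0651% of all genes for glucose, 2.92%, 1.14% and 0.00592% for sucrose, and 6.71%, 1.23% and 0.00592% for fructose. At an unadjusted p under 0.05 there were 3, 3 and 0 of 49 genes for glucose, against 5.32%, 13.8% and 5.34% of all genes, 4, 5 and 2 for sucrose, against 13.2%, 14.9% and 4.35%, and 2, 4 and 2 for fructose, against 17.6%, 11.4% and 4.23%. DESeq2 called 1 gene in fructose at 3 h and none in the others. The 3 sugars were each compared with the same water libraries. Median log2 fold changes lay between -0.10 and 0.13, the largest for glucose at 3 h and the lowest for fructose at 6 h. In glucose at 3 h 45 of 49 genes had a positive log2 fold change, against 50.3% of all genes, and at 6 h 39 in glucose, 36 in sucrose and 44 in fructose had a negative one, against 47.1%, 48.9% and 47.5% of all genes. The members vary together from library to library, and no test was made of these signs.

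The gene that passed was Psmb9, with a lower level in fructose at 3 h: 8.19 ± 3.17 CPM in fructose and 13.1 ± 3.91 CPM in water (SD, n = 10 each). Its log2 fold change was -0.64 (SE 0.193, adjusted p = 0.02413, edgeR), with 9 of 10 fructose libraries below the mean of their strain's water group. Sucrose at 3 h had -0.52 (adjusted p = 0.1432) and glucose -0.07, and at 6 h the values were -0.34, -0.40 and -0.38 for glucose, sucrose and fructose, none of which passed. The overlapping Tap1 was also lower in fructose at 3 h (-0.54, adjusted p = 0.0114). The Psmb9 call was lost without replicate 1, 2, 3 or 5, and without the libraries with a name suffix. For Psmd14 at 6 h, levels were 60.6 ± 11.2 CPM in glucose, 56.2 ± 12.0 CPM in sucrose and 54.0 ± 8.95 CPM in fructose, against 64.0 ± 9.22 CPM in water. The 95% intervals of these differences ran from -0.29 to 0.12 for glucose, from -0.40 to 0.00 for sucrose and from -0.45 to -0.04 for fructose on the log2 scale, with no adjusted p under 0.05.

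Between the strains, over all 13 conditions they share, 31 of 49 genes were higher in BALB/c and 7 lower, against 55.3% of all genes called (28.7% higher and 26.5% lower), with 63 BALB/c and 65 C57BL6/J libraries. The median log2 fold change was 0.15 over the proteasome genes and 0.01 over all genes. The 19S genes were on the higher side, with 5 of 6 ATPase genes and 10 of 11 others higher in BALB/c and Psmd11 lower. Of the alpha genes 6 were higher and 1 lower, of the beta genes 5 higher and 1 lower, and of the chaperone genes 4 higher and 1 lower. Of the immunoproteasome genes, none was higher, Psmb9 (-0.37) and Psmb10 (-0.25) were lower, and Psmb8 had -0.01.

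Psmb5, which encodes the chymotrypsin-like catalytic subunit, went against its class. In BALB/c its lowest, median and highest levels were 45.7, 89.6 and 137 CPM, and in C57BL6/J they were 99.0, 151 and 203 CPM. Of the BALB/c libraries, 44 of 63 lay below every C57BL6/J library, and the mean was lower in BALB/c in 13 of 13 conditions. The log2 fold change was -0.77 (SE 0.054, adjusted p = 3.138e-25, edgeR), and it held between -0.82 and -0.74 in every alternative tried. Of the other catalytic subunits, Psmb7 was higher in BALB/c (0.09), a call lost without the filter on low counts and without replicate 2, 3 or 4, and Psmb6 did not pass (0.10).

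The largest strain difference was at Psma8, at a low level: 0.588, 1.43 and 3.25 CPM in BALB/c as lowest, median and highest, and 0, 0.544 and 1.61 CPM in C57BL6/J. The ranges overlapped, and 19 BALB/c libraries lay above all of C57BL6/J (log2 fold change 1.38, adjusted p = 2.886e-20, edgeR). In BALB/c, Psmf1 had 23.7, 32.1 and 44.7 CPM, beside 16.0, 24.5 and 35.7 CPM in C57BL6/J, and all 63 BALB/c libraries lay above the mean of their C57BL6/J group (0.41). Psma5 (0.45), Psmc2 (0.40), Psmd3 (0.39), Psmg4, a chaperone of core assembly (0.38), Psma7 (0.37) and Psmd7 (0.34) were higher in BALB/c too.

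Psmb9 had 3.56, 11.5 and 19.3 CPM in BALB/c and 2.99, 15.0 and 48.0 CPM in C57BL6/J, and its mean was lower in BALB/c in 12 of 13 conditions. Psmb10 had 17.6, 38.6 and 88.0 CPM in BALB/c and 25.0, 49.5 and 88.1 CPM in C57BL6/J, and was lower in 11 of 13. The BALB/c range of Psmb9 lay within that of C57BL6/J, which reached higher, and the ranges of Psmb10 overlapped almost fully. Psme1, which encodes an interferon-induced activator subunit, was also lower in BALB/c (-0.21). Of 18 genes of interferon response and antigen presentation, 11 were lower in BALB/c and 3 higher; the lower ones included Tap1 (-0.60), B2m (-0.50) and Gbp2 (-1.08). T and NK cell markers summed to 0.546 to 6.25 CPM in BALB/c (median 1.93), against 1.29 to 15.7 CPM in C57BL6/J (median 2.97), with 5 of 6 lower in BALB/c. B and plasma cell markers summed to 1.58 to 14.1 CPM in BALB/c (median 4.96), against 0.806 to 21.5 CPM in C57BL6/J (median 3.13), with 2 of 5 higher in BALB/c and none lower, and of 6 dendritic and other myeloid markers 2 were higher and 4 lower. Of 5 Kupffer cell markers, none was higher and 2 were lower in BALB/c. They summed to 60.3 to 292 CPM in BALB/c (median 125), against 60.7 to 438 CPM in C57BL6/J (median 132). The part of all these markers in the immunoproteasome values was not tested.

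**Figure D5:**
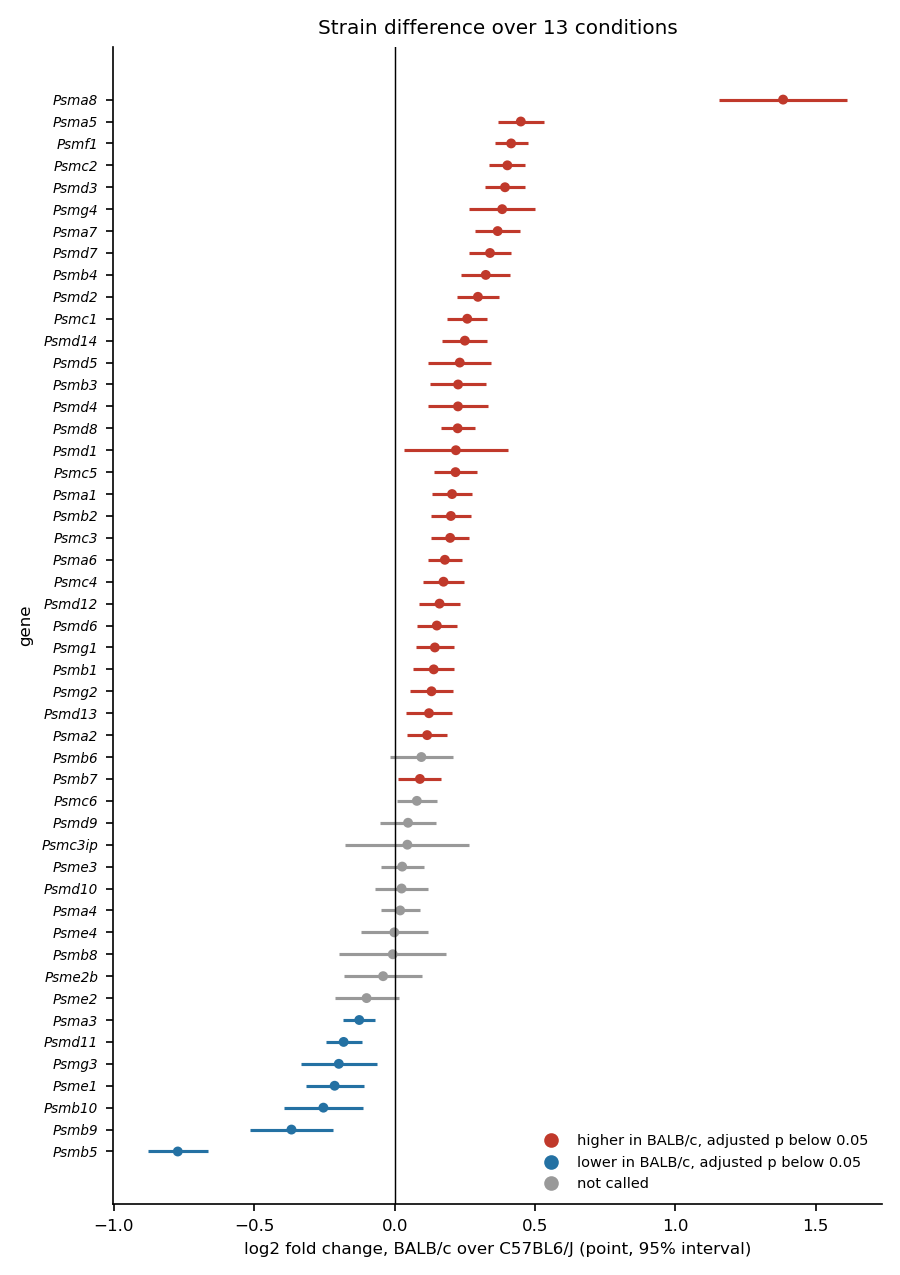
Log2 fold change of each tested gene between BALB/c and C57BL6/J over 13 conditions, as a point with its 95% interval, red where higher and blue where lower in BALB/c at an adjusted p under 0.05. Most genes lie right of 0, and Psmb5 stands apart on the left at -0.77.

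Genes that act with the proteasome but do not carry the Psm name were counted in lists, to be read against 28.8% of all genes called in water at 6 h, 13.9% higher and 14.9% lower. Of 12 tested genes of other proteasome subunits, cofactors and assembly factors, 5 rose in water at 6 h and none fell. They included Usp14, a deubiquitinase bound to the 19S base (0.60), Txnl1, a thioredoxin-like protein of the 19S particle (0.49), and Adrm1, an ubiquitin receptor (0.33). Of 14 genes of ubiquitin supply and shuttles, 4 rose and none fell, with the shuttle genes Ubqln1 at 0.65 and Rad23b at 0.61. Of 13 genes listed as regulators of proteasome genes or of protein breakdown, 1 rose and 5 fell, with the forkhead factor genes Foxo1 at -1.07, Foxo3 at -0.80 and Foxo4 at -0.56. Of 18 genes of interferon response and antigen presentation, 6 rose and 1 fell, with Isg15 at 1.63 and Irf9 at 0.65. All 12 stress chaperone genes rose at 3 h, where 12.7% of all genes did (median log2 fold change 1.66) and 10 of 12 at 6 h (1.24), with the endoplasmic reticulum genes Sdf2l1 at 2.97 and Manf at 2.29 and the cytosolic chaperone gene Hsp90aa1 at 1.96 at 6 h, and 9 of 12 were lower than 0 h at 12 h (-0.81), as were 9.3% of all genes. The chaperone genes were thus called at 3 h as well as at 6 h, and between 6 and 12 h all 12 fell over all drinks (median -2.54), where 26.2% of all genes fell.

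Across the means of the 26 groups, the gene outside the set whose profile was most like the mean of the constitutive core was Pomp, which encodes the maturation protein of the core (Pearson's r 0.93 over 16837 genes compared), followed by Stoml2 (0.927), Nudt16l1 (0.913), Mrpl21 (0.905) and Cfdp1 (0.896). For the immunoproteasome the nearest were 2610002J02Rik (0.834), Gm27216 (0.812), Isca2 (0.811), Zbp1 (0.811) and Coq2 (0.803). The group means share strains, times and drinks, and the libraries share depth, so these values describe likeness.

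After the group means were taken out, genes of the core and of the ATPases varied together across the libraries. The median correlation of residual log2 levels was 0.657 among alpha genes, 0.709 among beta genes and 0.56 among ATPase genes, and nearly as high between these classes, with 0.614 between alpha and beta genes and 0.59 between beta and ATPase genes. It was 0.711 among the 3 immunoproteasome genes, 0.0812 among activators and inhibitor, 0.0669 among assembly chaperones, and -0.247 between immunoproteasome and other 19S genes. Psmb3 and Psmb6 had 0.918, and Psmd1, a scaffold of the base, and Psme4, an activator, had 0.901. The median of the correlations with the single core genes was negative for both Psmd1 (-0.264) and Psme4 (-0.193). Members with a longer gene model had lower such medians: over 48 members the rank correlation between length and the median correlation with the core was -0.548, with a median r of 0.183 for 12 members over 2500 bases and 0.595 for 20 members under 1500 bases. These correlations share the libraries and their depth. No such values are given here for genes outside the set, so they do not show that proteasome genes vary together more than other genes.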

How the data were processed

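The libraries were bulk liver RNA-seq. The authors aligned reads with STAR 2.5 and counted them per gene with HTSeq 0.6.1 on GRCm38 or mm10, per the submitters' processing notes, and both the gene counts and the FPKM values were deposited by the authors. The FPKM values equal the count scaled by library total and gene length. The strand setting of the counting was not given in the sources used here. Reads of both strains were counted on the same build, and what that does to BALB/c counts was not tested.

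Counts were fitted with edgeR 4.0.16 (limma 3.58.1, R 4.3.3): TMM scaling, filterByExpr over the 26 groups, which kept 16886 genes, 1 model with a mean per group over all libraries, a robust quasi-likelihood test, and Benjamini-Hochberg adjustment over all genes at 0.05. Strains and drinks were weighted equally in pooled contrasts. Levels are TMM-scaled CPM, and FPKM was used where genes are set against each other. The fit was tested on simulated data whose spread between libraries was set lower than in these data. The simulation therefore does not give the error rate of the calls here. DESeq2 1.42.0 was an alternative, as were RLE scaling, no filter, a replicate block, the name suffix, the libraries of a contrast alone and leaving out libraries, including, chosen after seeing the data, the 4 with adrenal transcripts. The log2 of the summed CPM of skeletal muscle markers plus 1 as a covariate was also chosen after seeing the data. Replicate numbers were checked for pairing, and in none of the sets of strain and time did all same-numbered pairs correlate above 0.1. No pair of libraries within a group had identical counts. Full statistics go to the 6 catalytic genes (Psmb5 to Psmb10) and to up to 4 members of a class with the smallest p in a contrast, and up to 3 genes with the smallest p are named from each other list, except 1 that is not reported here. The members and the gene lists were chosen with earlier results of these data known. Depth limits precision, and error terms cover the spread between libraries.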

Additional observations from a re-analysis of the deposited data

Results flagged for a closer look

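Values of single libraries that stood apart from the others of their group of 5 were looked for in the 8 water groups for 9 genes, which were chosen with their values known, and 8 of 72 did. Chance gives about 1 in 20. Psmd14 was at 50.7 CPM in C57BL6/J at 0 h replicate 2, with the others at 25.6 to 29 CPM, and in the same library Psmd9 was at 39.7 CPM, with the others at 53.8 to 59.2 CPM. This is the library with 160 CPM of Pck1.

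Psmd9 was at 185 CPM in BALB/c at 0 h replicate 1, with the others at 53.7 to 75.8 CPM, and at 100 CPM in BALB/c at 12 h replicate 1, with the others at 39.6 to 52.6 CPM. Psmc5 was at 143 CPM in BALB/c at 0 h replicate 4, with the others at 90.9 to 98.9 CPM, and at 72.4 CPM in C57BL6/J at 12 h replicate 2, with the others at 92.9 to 101 CPM. Psma1 was at 54.9 CPM in C57BL6/J at 3 h replicate 4, with the others at 87 to 99.8 CPM. Psme3 was at 52.6 CPM in BALB/c at 3 h replicate 4, with the others at 64.1 to 68.2 CPM.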

How the results depend on the processing

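Of the genes called, 17 of 25 in water at 6 h, 6 of 9 at 3 h, 3 of 7 at 12 h, 8 of 19 between 3 and 6 h, 14 of 23 between 6 and 12 h, 32 of 38 between the strains and 0 of 1 in fructose at 3 h were called in every alternative tried. Leaving out a replicate number gave 4 to 7 calls in water at 12 h, with 4 without replicate 3 or replicate 5. It gave 0 to 1 in sucrose at 3 h, with 1 without replicate 5, and 0 to 1 in fructose at 3 h, with 1 only without replicate 4. The libraries of the contrast alone gave 3 calls in water at 12 h and 1 in sucrose at 3 h, which was Psmb9. Libraries without the name suffix gave 11 calls between 3 and 6 h and 0 in fructose at 3 h. The causes of these differences were not tested, except that fewer libraries enter each of these fits.

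Values near 0 changed sign. In C57BL6/J the log2 ratio of Psmb8 to Psmb5 without the suffix libraries was 0.255 at 3 h and 0.243 at 12 h against 0 h. Without a replicate it ran from -0.1002 to 0.0858 at 3 h, from -0.2299 to 0.0941 at 6 h and from -0.2051 to 0.0061 at 12 h, and in BALB/c at 3 h from -0.3433 to 0.1128. That of Psmb10 to Psmb7 in C57BL6/J at 3 h ran from -0.1293 to 0.0922, and was -0.1501 without the 0 h library with low Pck1. The log2 fold change of Psmb7 in water at 3 h ran from -0.0505 to 0.0545, of Psmb8 at 6 h from -0.185 to 0.0848, of Psmb6 at 12 h from -0.0879 to 0.1321, with -0.0271 when the muscle markers were a covariate, and of Psmb5 at 12 h from -0.1435 to 0.0645, and the last was 0.0051 with the name suffix as a covariate and 0.0332 without the suffix libraries.

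Same-numbered libraries at 0 h and a later time correlated above 0.1 in 4 of 5 pairs at 3 h, 1 at 6 h and 3 at 12 h in each strain. At 3 h, 4 of 5 libraries in each strain correlated best with their own number at 0 h. At 6 and 12 h this held for 1 and 3 of 5 in BALB/c and for 2 and 1 of 5 in C57BL6/J. Some libraries thus went with their number, but the main fit did not pair them, and a block by number was an alternative. The libraries with a name suffix are mostly replicates 2 and 5. With the replicate number as a block, 10, 27 and 8 genes were called in water at 3, 6 and 12 h, 24 between 3 and 6 h, 23 between 6 and 12 h and 37 between the strains. Depth limits the low genes, such as Psma8 and Psmc3ip, with mean counts of 25.91 and 16.45, while Psmb9 had a mean count of 336.7.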
